A study of Mus musculus with 3 samples.

Results

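The mitochondrial carriers of the SLC25 family, with the uncoupling proteins that belong to it, were examined as 1 group of genes in mouse aortic endothelial cells exposed to an oxidant. Members were the protein-coding genes whose symbols begin with Slc25a or Ucp and a digit in the count table of glucose oxidase plus Et2HOBA against control, and the same symbols were taken from the table of glucose oxidase against control. This rule uses names and no measured value, and it gave 43 genes of the 18287 listed. Release M21 of the GENCODE annotation holds 50 protein-coding genes with such symbols; the other 7 (Slc25a21, Slc25a31, Slc25a41, Slc25a48, Slc25a54, Ucp1 and Ucp3) were not analysed here.

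Polyadenylated RNA was sequenced from purchased mouse aortic endothelial cells, the cells that line the aorta, with 1 library in each of 3 groups. The control group is labelled only as control. The second group was given glucose oxidase at 5 mU/mL for 30 min, an enzyme that oxidises glucose and releases hydrogen peroxide. The third group had the same oxidase exposure together with ethyl-2-hydroxybenzylamine (Et2HOBA, 0.2 mM, 24 h), which the study used to scavenge adducts. Below, these are the control, the oxidase library and the combined library, and 3 read counts given in a row are always in that order. No strain, passage, sex or age is given for the cells, and no library given Et2HOBA alone was analysed here.

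Carriers of this family sit in the inner mitochondrial membrane, apart from a few in peroxisomes or the outer membrane, and move nucleotides, phosphate, carboxylates, amino acids, cofactors and iron between the cytosol and the matrix. Most work by exchange, so that the entry of 1 compound is tied to the exit of another. Uncoupling proteins are relatives of these exchangers; the best known lets protons leak across the membrane in brown fat. Endothelial cells make much of their ATP by glycolysis, and their mitochondria are also known as a source of oxidant signals and of biosynthetic precursors.

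With a single library per group, differences lack a replicate check and conditions could not be tested. Fold differences are ratios of normalized read counts (reads divided by a size factor of the library), and the intervals beside them are exact binomial (Clopper-Pearson) intervals at 95% on the reads of 2 libraries, which cover counting error only. Log2 ratios are of the normalized count plus 10. The limit for a call is a log2 ratio of 1 in either direction. Ratios against control share the control library, and both comparisons that involve the oxidase library share it. Because these are bulk RNA values, fewer cells of a type and less RNA per cell cannot be told apart. The libraries held 35969965, 35005089 and 40212212 reads over the listed genes. All 8 endothelial markers were present in every library, from 1688 to 78258 reads each, but Kdr and Tek were lower past the limit in both treated libraries and Cldn5 in the combined library. Of 3 listed smooth muscle, 2 fibroblast, 2 macrophage and 1 adipocyte markers, Cd68 had 8215, 17067 and 27799 reads, Pdgfra 107, 1325 and 2821, and Myh11 19, 35 and 73; the other five lay between 0 and 30 reads. The defining genes Dcn, Lum, Ptprc, Adgre1, Adipoq and Cidea are not among the listed genes. The part that these shifts have in the carrier values was not tested.

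The counts of carriers past the limit were too small to set the family apart from other protein-coding genes. In the oxidase library 2 of 43 were past it against control, both higher (Slc25a37 and Slc25a33). Of the 13285 protein-coding genes, 9.3% were past it in this comparison, 4.53% higher and 4.76% lower. In the combined library 5 of 43 differed from control by that much, Slc25a37 and Slc25a33 higher and Slc25a10, Slc25a35 and Ucp2 lower, against 16.6% of protein-coding genes (7.33% higher and 9.3% lower). Between the combined and the oxidase library 1 of 43 passed, Slc25a35, which was lower in the combined one, against 3.32% of protein-coding genes (0.971% higher and 2.35% lower). Over all 18287 listed genes the shares past the limit were 12.7%, 14.7% and 8.55% in the same order of comparisons. In the oxidase library against control, 745 of them were higher past it and 1572 lower. Between the treated libraries 1169 were higher in the combined one and 394 lower. The middle of the family stayed close to 0. The median log2 ratio over the 43 members was 0.11 for oxidase against control, -0.07 for combined against control and -0.09 between the treated libraries, and over all protein-coding genes these medians were 0.04, 0.00 and -0.02. The median absolute ratio was 0.20 for the members and 0.27 for protein-coding genes in the first comparison, 0.31 and 0.39 in the second, and 0.22 and 0.21 in the third. The counts of carriers past the limit rest on 1 to 5 genes. Role groups below hold 1 to 9 members, so a count of 0 or 1 within a group is not read as a trait of it. Depth makes small differences countable. The counting interval left out a ratio of 1 for 29, 30 and 29 of the 43 members in the same order of comparisons.

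**Figure D1:**
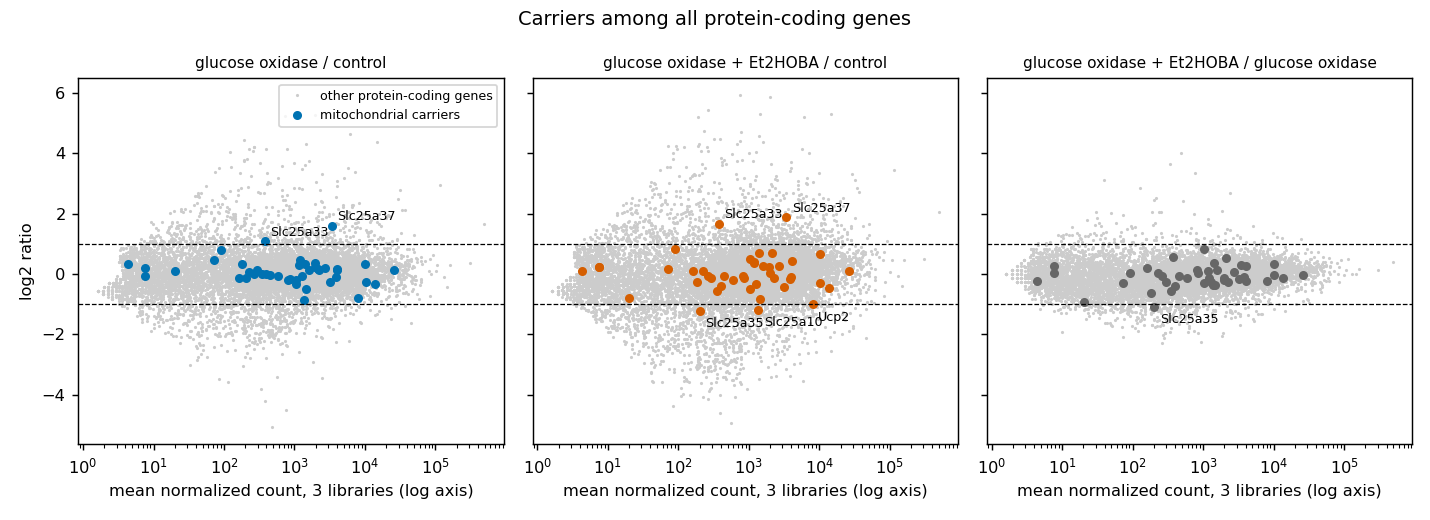
Log2 ratio of normalized count plus 10 (vertical) against mean normalized count over the 3 libraries (horizontal, log axis) for the 43 carriers (coloured) and the other protein-coding genes (grey), 1 panel per comparison; dashed lines mark the limit of 1. Most carriers lie inside the limit, with 2, 5 and 1 of the 43 past it in the panels from left to right. The shares of protein-coding genes past it were 9.3%, 16.6% and 3.32%.

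The members past the limit span several roles. Of these 5 genes, Slc25a33, Slc25a10 and Ucp2 had an entry among the RefSeq promoter sequences of GRCm38.p6, and the 250 bases before their annotated starts are shown because Slc25a33 rose and the others fell. Capitals mark matches to the core of the antioxidant response element, TGACNNNGC on either strand, which NRF2 and its partners bind.
Slc25a33, chr4:149774268-149774517, minus strand: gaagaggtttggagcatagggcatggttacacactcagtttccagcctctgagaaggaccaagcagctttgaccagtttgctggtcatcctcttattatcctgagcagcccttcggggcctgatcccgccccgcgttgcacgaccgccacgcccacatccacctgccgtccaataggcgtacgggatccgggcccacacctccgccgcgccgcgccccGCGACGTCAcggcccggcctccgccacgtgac
Ucp2, chr7:100493108-100493357, plus strand: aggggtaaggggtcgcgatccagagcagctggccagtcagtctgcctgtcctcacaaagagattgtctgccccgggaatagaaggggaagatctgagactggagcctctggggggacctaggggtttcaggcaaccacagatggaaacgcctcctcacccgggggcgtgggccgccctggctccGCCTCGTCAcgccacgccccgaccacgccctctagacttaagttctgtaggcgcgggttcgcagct
Slc25a10, chr11:120491587-120491836, plus strand: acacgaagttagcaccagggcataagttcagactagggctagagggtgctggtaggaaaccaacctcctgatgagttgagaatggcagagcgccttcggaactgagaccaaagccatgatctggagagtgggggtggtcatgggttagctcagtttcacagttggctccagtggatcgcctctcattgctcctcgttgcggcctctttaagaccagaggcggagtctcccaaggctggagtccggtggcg
The match lay 32 bases before the start in Slc25a33 (GCGACGTCA) and 66 bases before it in Ucp2 (GCCTCGTCA), so it was found in a gene with more reads and in a gene with fewer reads after treatment, and none was found in this window of Slc25a10. Across the family, 33 of 43 members had at least 1 promoter in the table and 8 of these 33 held the motif (Slc25a3, Slc25a5, Slc25a14, Slc25a23, Slc25a25, Slc25a33, Slc25a38 and Ucp2), or 24.2%. Over all genes in the table the share was 11.5%, and over all promoters 10.2%. The median GC content of these windows was 57.8% for members and 52.4% for all promoters. The composite element of ATF4 and C/EBP factors (TGATGNAA, either strand) had no match in the 42 member promoters, against 3.45% of all promoters. The motifs were chosen after the values were seen, and a match is a run of letters and not evidence of binding. Any link between a match and the direction of change was not tested.

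The 4 iron and glutathione carriers were all higher than control in both treated libraries, but only Slc25a37 passed the limit. Of 13285 protein-coding genes, 7171 had a log2 ratio above 0 in the oxidase library and 6655 in the combined library. With 4 genes, no response of the group is read from their shared direction. Slc25a37 (mitoferrin-1; ENSMUSG00000034248.7, chromosome 14, 69241848 to 69285112), which brings iron into mitochondria for heme and iron-sulfur clusters, had 1349 reads in the control, 3858 in the oxidase and 5079 in the combined library. Control was lowest, and the level rose 3.06-fold (95% interval 2.87 to 3.26) and 3.74-fold (3.52 to 3.98) over control, the largest increases of the family in both comparisons. Between the treated libraries the ratio was 1.22 (1.17 to 1.28), a log2 ratio of 0.29. Slc25a28 (mitoferrin-2), the other iron carrier, had 1013, 1323 and 1310 reads. It was at 1.40 and 1.28 times the control level and did not pass the limit. Of the reads of the 2 mitoferrins, Slc25a37 held 57.1% (95% interval 55.1 to 59.1) in control, 74.5% (73.3 to 75.6) in the oxidase library and 79.5% in the combined one (78.5 to 80.5). These intervals do not overlap. A stretch of 5.67% of the longest Slc25a37 transcript is shared with another gene on the same strand, and reads from it could be split. Its exons also overlap those of Gm27223 and Gm31748 on the opposite strand.

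Both glutathione carriers, which bring this antioxidant peptide into the matrix, had more reads in each treated library without passing the limit. Slc25a39 (ENSMUSG00000018677.9, chromosome 11, 102402985 to 102407946) had 8135, 9565 and 13070 reads, or 1.26-fold (1.22 to 1.29) and 1.60-fold (1.55 to 1.64) the control level. Its paralogue Slc25a40 had 1115, 1320 and 1843 reads, or 1.27-fold (1.17 to 1.37) and 1.64-fold (1.52 to 1.77). The proportions of the pair had overlapping intervals: Slc25a39 made up 87.9% of their reads in control, 87.9% in the oxidase library and 87.6% in the combined library, with 95% intervals from 87.1 to 88.6 at their widest. Between the treated libraries the log2 ratios of these genes were 0.34 and 0.37. Per transcript length, Slc25a39 was the fourth most abundant carrier in control and the second in the combined library, at an RPKM (reads scaled by the length of the longest transcript and by library size) of 134 and 193.

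**Figure D2:**
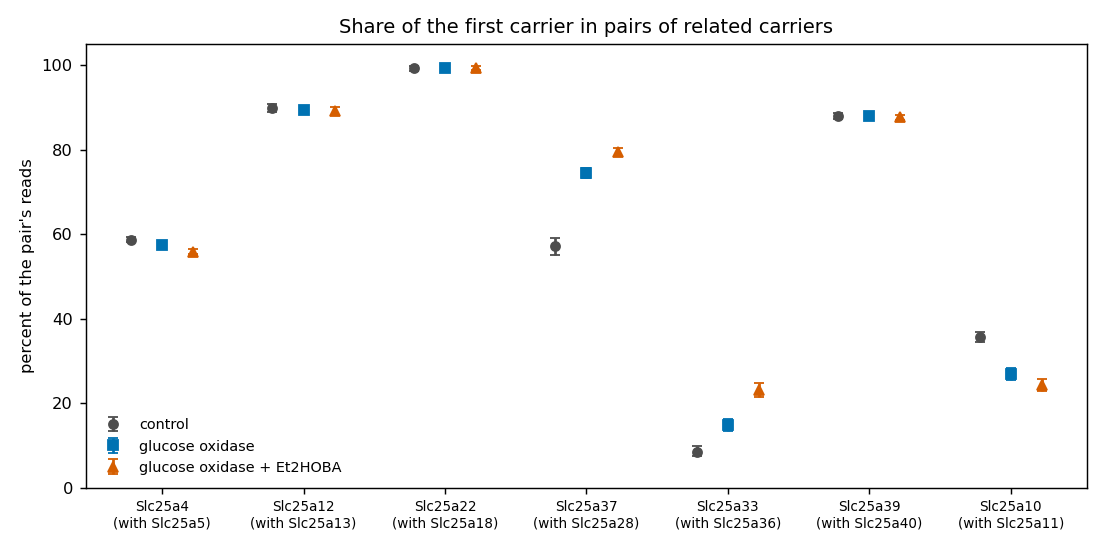
Percent of a pair's reads that came from the first named carrier, with the second in brackets, in each library; bars are exact binomial 95% intervals on reads and there is 1 library per group. Slc25a37 rises from 57.1% to 79.5% of the mitoferrin reads and Slc25a33 from 8.57% to 23.1% of the pyrimidine carrier reads, while Slc25a39 stays at 87.6% to 87.9% of the glutathione carrier reads.

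Among the carriers of cofactors and nucleotides, 1 of 9 passed the limit. Slc25a33 (ENSMUSG00000028982.9, chromosome 4, 149744036 to 149774277) carries pyrimidine nucleotides into mitochondria, where they are needed for mitochondrial DNA and RNA. It had 179, 367 and 596 reads, so that control was lowest and the combined library highest. The level rose 2.19-fold (1.83 to 2.64) and 3.31-fold (2.79 to 3.93) over control, and lay 1.51-fold (1.32 to 1.72) higher in the combined library than in the oxidase library. Its log2 ratio in the oxidase library was 1.09 on the scale used here and 0.71 in the authors' deposited table, so that this call was lost there. Exons of Slc25a33 and of Slc25a10 overlap those of Gm13068 and Gm11788 on the opposite strand, and 12.6% and 9.07% of the 50-base stretches of their longest transcripts are shared with these. Slc25a36, the other pyrimidine carrier, had 1909, 2107 and 1986 reads, with log2 ratios of 0.24 and 0.05 against control. The share of Slc25a33 in the reads of the pair was 8.57% (7.41 to 9.86), 14.8% (13.5 to 16.3) and 23.1% (21.5 to 24.8). Slc25a36 remained the more abundant of the pair in every library, also per length.

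Slc25a32 (ENSMUSG00000022299.9, chromosome 15, 39091231 to 39112716), which brings folate into mitochondria, had 1984, 1319 and 1109 reads. Control was highest; the log2 ratios of -0.49 and -0.84 against control did not reach the limit, and the ratio in the combined library was 0.555 (0.516 to 0.598). The coenzyme A carrier Slc25a42 had 406, 380 and 271 reads and was level with control in the oxidase library (95% interval of the ratio 0.868 to 1.15) but 0.663 of control in the combined library (0.567 to 0.775). Slc25a16, the peroxisomal carrier Slc25a17, the S-adenosylmethionine carrier Slc25a26 and the NAD carrier Slc25a51 had log2 ratios between -0.16 and 0.36 against control. Slc25a17, the most abundant of the 9 per length, had 1753, 2102 and 2059 reads.

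Of the 3 listed carboxylate carriers 1 passed the limit. Slc25a10 (ENSMUSG00000025792.9, chromosome 11, 120491840 to 120499187) exchanges malate or succinate for phosphate, and had 2127, 1103 and 926 reads. Control was highest, well above both treated libraries. The level in the combined library was 0.433 of control (0.400 to 0.468), a log2 ratio of -1.20, and in the oxidase library it was 0.554 (0.515 to 0.596), a log2 ratio of -0.85 that did not reach the limit. Slc25a11, which exchanges oxoglutarate for malate in the malate-aspartate shuttle, had 3826, 3000 and 2875 reads and log2 ratios of -0.25 and -0.42 against control. Slc25a1, which exports citrate for fatty acid and sterol synthesis, differed in direction from both, with 3620, 3793 and 4916 reads and 1.12-fold (1.07 to 1.17) and 1.35-fold (1.29 to 1.41) the control level. The carnitine-acylcarnitine carrier Slc25a20, which admits fatty acyl groups for oxidation, had 1255, 1022 and 885 reads, with log2 ratios of -0.20 and -0.51 against control.

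**Figure D3:**
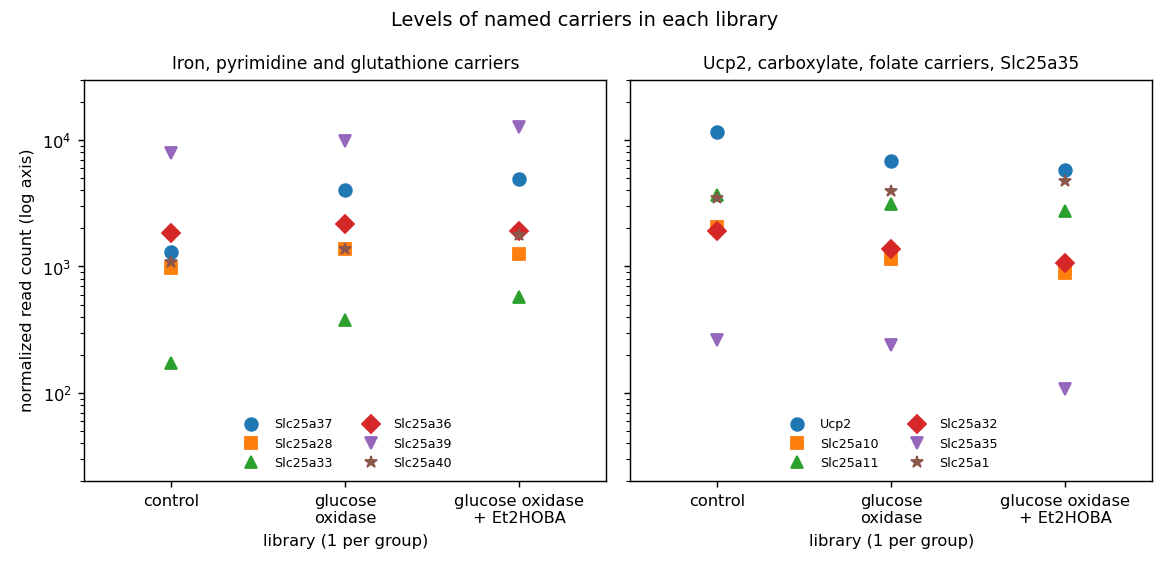
Normalized read count (log axis) of 12 carriers in each of the 3 libraries, 1 library per group, 1 symbol per gene. Slc25a37 and Slc25a33 are lowest in control, and Ucp2, Slc25a10, Slc25a32 and Slc25a35 are highest there.

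Ucp2 (ENSMUSG00000033685.13, chromosome 7, 100493337 to 100502020) was the only gene with an Ucp symbol among the listed genes. It is a ubiquitous relative of the brown fat uncoupling protein and is studied in endothelium for its link to mitochondrial superoxide. It had 12004, 6539 and 6023 reads, and both treated libraries lay well below control. The level was 0.582 of control in the oxidase library (0.565 to 0.6002), a log2 ratio of -0.78. With Et2HOBA it fell to 0.499 of control (0.483 to 0.514), a log2 ratio of -1.003 that is the closest to the limit of all called members. Between the treated libraries the ratio was 0.856 (0.827 to 0.887). In control Ucp2 ranked 5 of 43 per transcript length, at an RPKM of 83.7, and it ranked 7 in both treated libraries, at 46.8 and 37.6. Its exons overlap those of Dnajb13 on the opposite strand, which had 31, 20 and 9 reads.

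The 3 members grouped with Ucp2 by sequence stayed inside the limit. Slc25a30 had 1756, 1868 and 2889 reads and was 1.14-fold (1.06 to 1.21) and 1.63-fold (1.54 to 1.74) the control level. Slc25a27 had 182, 219 and 150 reads, so that glucose oxidase alone was highest, and was 0.637 (0.514 to 0.787) of that level in the combined library. Slc25a14, at 224, 219 and 243 reads, could not be told apart from control at this depth, with intervals that held 1 in all 3 comparisons.

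None of the 6 carriers of adenine nucleotides and phosphate passed the limit, and 3 of them, Slc25a3, Slc25a4 and Slc25a5, ranked 1 to 3 per length in the control and oxidase libraries. Slc25a4 and Slc25a5, the ADP/ATP translocases that export ATP from the matrix, had 17022, 12550 and 12310 reads and 11969, 9316 and 9726 reads. Slc25a4 was at 0.788 (0.770 to 0.807) and 0.719 (0.702 to 0.735) of control, and Slc25a5 at 0.832 (0.810 to 0.855) and 0.807 (0.786 to 0.829). Slc25a4 made up 58.7% of the reads of this pair in control, 57.4% in the oxidase library and 55.9% in the combined library, and 47.8%, 46.5% and 44.9% once length was taken into account. Slc25a3, the phosphate carrier that supplies ATP synthase, had 25466, 25940 and 27426 reads, 1.09-fold and 1.07-fold the control level; with total-count scaling the second ratio turned from a log2 value of 0.10 to -0.05. Slc25a5 shares 46.6% of the 50-base stretches of its longest transcript with 9 other genes, 7 of them listed, which are all processed pseudogenes. The summed reads of such copies are small beside those of Slc25a5. They do not show how many reads Slc25a5 itself may have lost to the shared stretches. The same limit holds for its share of the pair with Slc25a4 and for its rank per length. Of these copies Gm5529 had 273, 26 and 214 reads and Gm5560 had 87, 12 and 98, low in the oxidase library. Listed genes with 0 reads were also most numerous in the oxidase library, at 464, against 131 in control and 218 in the combined library.

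The calcium-regulated carriers of ATP-Mg and phosphate differed from each other. Slc25a24 had 4074, 4175 and 3845 reads, with log2 ratios of 0.13 and -0.09 against control. Slc25a25 had 1005, 748 and 1432 reads, lowest in the oxidase library at 0.796 of control (0.723 to 0.875) and highest in the combined library at 1.42-fold (1.31 to 1.54). The log2 ratio of 0.82 between the treated libraries was the highest of the family in that comparison. Slc25a23 had 25, 26 and 10 reads, and its log2 ratio of -0.91 between the treated libraries rests on these few reads.

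None of the 9 amino acid carriers passed the limit in any comparison. The shares of protein-coding genes past it were 9.3%, 16.6% and 3.32%, and with so few carriers nothing is read from this count. Log2 ratios of these carriers against control lay between -0.39 and 0.40. The aspartate-glutamate carriers of the malate-aspartate shuttle were Slc25a12, the most abundant of the 9 per length, with 4210, 3718 and 3758 reads, and Slc25a13, with 476, 439 and 455. Slc25a12 held 89.8%, 89.4% and 89.2% of their reads, with overlapping intervals. The glutamate carrier Slc25a22 had 1015, 1174 and 1353 reads, 1.24-fold (1.14 to 1.35) and 1.32-fold (1.22 to 1.44) the control level, while its paralogue Slc25a18 had 6, 8 and 9 reads. Slc25a38, which supplies glycine for heme synthesis, had 450, 420 and 342 reads and a log2 ratio of -0.39 in the combined library against control. The ornithine carrier Slc25a15 had 895, 732 and 856 reads and its paralogue Slc25a2 had 3, 6 and 4. The basic amino acid carrier Slc25a29 and the branched-chain amino acid carrier Slc25a44 had log2 ratios between -0.33 and 0.09 against control.

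Of the 7 members with another or no assigned role, 1 passed the limit. Slc25a35 (ENSMUSG00000018740.14, chromosome 11, 68968131 to 68974365) had 271, 232 and 112 reads, so that only the last library was low. It was 0.915 of control in the oxidase library (0.765 to 1.09), an interval that holds 1, and fell in the combined library to 0.411 of control (0.326 to 0.514) and 0.449 of the level in the oxidase library (0.355 to 0.565). In the authors' deposited table its log2 difference from control was -0.95, so it did not reach the limit there. With a pseudocount of 50 the log2 ratio between the treated libraries was -0.88, and on the authors' scale it came to -0.29, so the call between those libraries was lost under both. Its longest transcript shares 25.8% of its stretches with other genes, all on the opposite strand, and its exons overlap those of Rangrf; the strand setting of the counting is not given in the sources used here. Slc25a47, which lies beside Slc25a29 on chromosome 12, had 59, 102 and 114 reads, with log2 ratios of 0.78 and 0.83 against control. Slc25a46, an outer membrane protein tied to mitochondrial shape, had 1495, 1528 and 1819 reads. Slc25a45, Slc25a53, Slc25a43 and Slc25a34 had log2 ratios between -0.13 and 0.47 against control, the last of them at 7, 6 and 10 reads.

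**Figure D4:**
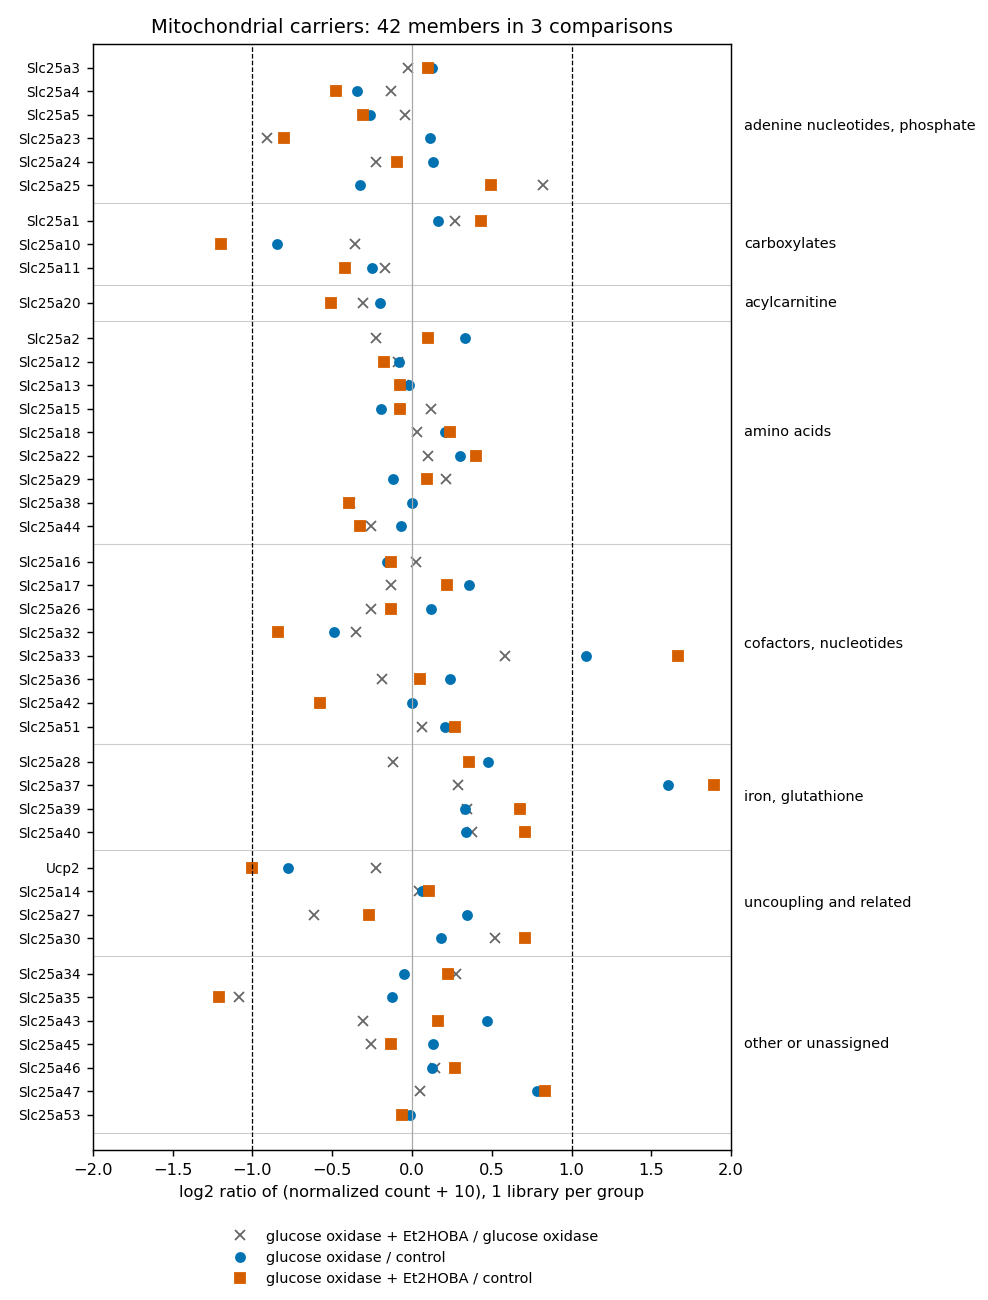
Log2 ratio of normalized count plus 10 (horizontal) for 42 carriers (rows, grouped by what they carry) in the 3 comparisons, 1 library per group; dashed lines mark the limit of 1. The 4 iron and glutathione carriers lie right of 0 in both comparisons against control. Of 13285 protein-coding genes, 7171 were above 0 in the oxidase library and 6655 in the combined library. All 9 amino acid carriers lie inside the limit, which 9.3%, 16.6% and 3.32% of protein-coding genes passed in the 3 comparisons.

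The family as a whole held 119930, 109726 and 118340 reads, which is 0.333% (0.332 to 0.335), 0.313% (0.312 to 0.315) and 0.294% (0.293 to 0.296) of each library. Slc25a3, Slc25a4 and Slc25a5 together made up 45.4%, 43.6% and 41.8% of the family's reads. Without them the shares of the libraries were 0.182%, 0.177% and 0.171%. These shares are of total reads, whereas the fold differences above use size factors. Scaling by total reads put the median log2 ratio of all genes at -0.13 in the combined library against control. No direction for the family is therefore read from the shares. Per transcript length the order in control was Slc25a5, Slc25a4, Slc25a3, Slc25a39 and Ucp2, and in the combined library it was Slc25a5, Slc25a39, Slc25a3, Slc25a4 and Slc25a1. Ranks per length depend on the longest annotated transcript, which has 4039 bases for Slc25a3, 3988 for Ucp2 and 1240 for Slc25a5. By reads alone, Slc25a3 was above Slc25a5 in every library. Levels ran from 0.0609 to 268 RPKM in control, with a median of 7.31. The least abundant members, Slc25a2, Slc25a18 and Slc25a34, had 3 to 10 reads in any library, and for them no difference was detectable at this depth.

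Genes outside the family that serve mitochondria are given beside the 9.3% of protein-coding genes past the limit in the oxidase library and the 16.6% in the combined library, both against control. Of 13 genes that import carriers into the inner membrane, none passed the limit in the oxidase library and 1 in the combined library against control: Timm8a1, a small chaperone of the intermembrane space, with 265, 369 and 562 reads and log2 ratios of 0.56 and 1.05. Of 20 other mitochondrial transport genes, 1 was past the limit in the oxidase library and 2 in the combined library. These were Mcub, a subunit that dampens the mitochondrial calcium uniporter, with 55, 177 and 317 reads (log2 ratios of 1.61 and 2.32), and Sfxn2, a sideroflexin, with 226, 122 and 67 reads (-0.75 and -1.62). The import list had medians of 0.09 and 0.18 against control and the transport list -0.0027 and -0.05. Of 13 genes of mitochondrial maintenance, the matrix protease gene Lonp1 was higher in both comparisons with control, with 6076, 17890 and 23739 reads (1.65 and 1.96), and the matrix chaperone gene Hspd1 in the combined library (1.04). Between the treated libraries no gene of these 3 lists passed the limit.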

How the data were processed

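Libraries were stranded and made from polyadenylated RNA, per the labels' protocols. STAR, featureCounts and build mm10 are named, without versions, in the submitters' processing notes; the strand setting of the counting is not given in the sources used here. The deposited table of the combined library against control holds the authors' raw read counts of both libraries for 18287 genes with log2 differences, per the file headers. The deposited table of the oxidase library against control holds log2 differences only, and the one between the treated libraries lists 7 genes, none of them a carrier.

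Reads of the oxidase library were recovered by inverting the authors' variance-stabilising transformation (an asinh of the root count, with a constant for each library). Of 18275 genes matched by symbol, 100% came within 0.01 of a whole read, against 3.31% when the control was shifted by 1 read; 12 more, with shared or date-like names, were placed by whole reads. The transformation acts like a pseudocount of about 202 reads in the oxidase table and 71.1 in the other, so deposited differences of low genes are smaller. The recovery was tested on simulated data. Every listed gene has at least 5 reads in its highest library. Size factors by the median of ratios (1.03, 0.965 and 1.04) scaled the reads, and a pseudocount of 10 was added for log2 ratios. No count model was fitted, since 1 library per group gives no spread. RPKM used the longest transcript in GENCODE M21, where all 17878 gene IDs of the same version had the same position, so coordinates are GRCm38. A stretch of 50 bases found in another annotated gene was called shared. Read counts are given for members past the limit with a mean normalized count of at least 10, the most abundant of each role group per length and the closest paralogues, and for others named after their values were seen. The values of 1 member are not reported here; it is included in the counts and medians. The members and lists were chosen with earlier results of these data known. Python 3.11.15, numpy 2.4.6, scipy 1.17.1 and pandas 2.3.3 were used.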

Additional observations from a re-analysis of the deposited data

How the results depend on the processing

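No paired analysis was possible because each group has 1 library, and for the same reason no replicate could be left out. The main counts of carriers past the limit were 2 in the oxidase library, 5 in the combined library against control and 1 between the treated libraries. In that order they became 5, 13 and 7 at a limit of 0.5 (27.0%, 40.6% and 17.2% of protein-coding genes) and 0 in each at a limit of 2 (1.63%, 4.83% and 0.158%). A pseudocount of 50 gave 1, 3 and 0 (6.04%, 11.96% and 1.32%), and a pseudocount of 1 gave 2, 6 and 2 (14.2%, 22.5% and 8.04%). On the authors' transformed scale they were 1, 4 and 0 (4.04%, 12.3% and 0.151%); between the treated libraries that scale was computed from reads, where it acts like a pseudocount of about 1236 reads. Over the 24 carriers with no 50-base stretch shared on either strand all 3 counts were 0, since each of the 5 called carriers has such a stretch; over the 33 with none on the same strand, an alternative added after the data were seen, they were 1, 4 and 1. Total-count scaling, the filter at a mean normalized count of 10 and the removal of Slc25a5 left each count as it was. Of 60 ratios of the 5 called carriers under other settings, none changed sign and 53 stayed on their side of the limit. Many of the 53 were not past the limit in the main setting and had no call to lose. The other 7 lost the call. Among the 7, Slc25a33 in the oxidase library was 0.94 with a pseudocount of 50, and Ucp2 in the combined library against control was -0.998, just short of the limit. Total-count scaling put the median of all genes at -0.13 in the combined library against control, and 4 carriers with ratios of at most 0.10 changed sign there (Slc25a3, Slc25a14, Slc25a29 and Slc25a36). Depth limits Slc25a2, Slc25a18, Slc25a23 and Slc25a34, at 3 to 26 reads.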

Other observations

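Enzymes and partners of the compounds that named carriers move were looked up in the same libraries, from a list written after the carrier values were seen. For folate, Slc25a32 had fewer reads in both treated libraries while 4 of 5 mitochondrial folate enzymes rose past the limit in both comparisons with control, in which 9.3% and 16.6% of protein-coding genes were past it in either direction. Shmt2, which makes glycine from serine, had 2849, 8570 and 11275 reads in the control, oxidase and combined libraries (log2 ratios of 1.68 and 1.97). Mthfd2 had 571, 6187 and 10427 reads (3.51 and 4.16), Mthfd1l 1214, 2704 and 3614 (1.24 and 1.56) and Aldh1l2 52, 2244 and 3696 (5.27 and 5.88). Mthfd2l, a relative of Mthfd2, had 1101, 999 and 859 reads (-0.04 and -0.36).

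For glutathione, 2 of 6 partner genes passed the limit in each comparison with control, beside the same 9.3% and 16.6%; the genes were picked with the data in view, so nothing is read from these counts. Gclm and Gclc, the subunits of the enzyme that begins its synthesis, had log2 ratios of 1.94 and 2.32 and of 1.16 and 1.16, against 0.33 and 0.67 for the carrier Slc25a39. Gss, Gsr and Gpx4 lay between 0.46 and 0.93 against control, as did Afg3l2, the gene of a mitochondrial protease, at 0.53 and 0.85. For iron, values beside those of the mitoferrin Slc25a37 were mixed: the transferrin receptor gene Tfrc had 1801, 3376 and 4705 reads (0.9987, just under the limit, and 1.37), whereas Abcb10, Fech, Alas1, Iscu and Nfs1 lay between -0.60 and 0.08.

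For fatty acids, Cpt1a, which forms the acylcarnitines that Slc25a20 carries, had 13851, 8199 and 5608 reads (-0.66 and -1.31). Cpt2 had -0.37 and -0.74, and Crat -0.24 and -0.52. Of these 3 genes, 0 passed the limit in the oxidase library and 1 in the combined library, both against control. In the malate-aspartate shuttle the cytosolic enzymes moved in opposite directions, with Got1 at 3896, 7581 and 11402 reads (1.05 and 1.54) and Mdh1 at 6168, 3942 and 2820 (-0.55 and -1.14), while the mitochondrial Got2 and Mdh2 stayed within 0.10 log2 units of control. For pyrimidine nucleotides, 1 of 5 partner genes passed the limit in each comparison with control. This was Cmpk2, also an interferon-induced gene, with 445, 181 and 77 reads (-1.16 and -2.39). Tk2, the mitochondrial thymidine kinase gene, had 617, 872 and 1201 reads (0.59 and 0.94). Twnk had 0.43 and 0.25, Polg 0.07 and 0.14, and Polrmt 0.02 and 0.03. None of the 4 citrate, 4 adenine nucleotide and phosphate and 2 glutamate partners passed the limit in either comparison with control. Beside the citrate carrier Slc25a1, Fasn had log2 ratios of -0.43 and -0.46 against control and Acly -0.13 and -0.28. Acaca had -0.08 and -0.01, and Cs 0.007 and 0.15. The counts in this paragraph stand beside 9.3% and 16.6% of protein-coding genes past the limit. None of these differences has a replicate check.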
